A study of Mus musculus with 6 samples.

Results

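The genes described here are 10 mouse genes that act at the entry of glucose into the cell and at the control of glycolysis by fructose 2,6-bisphosphate. They are the glucose transporters Slc2a1, Slc2a3, Slc2a4, Slc2a8 and Slc2a10, the 4 PFKFB enzymes Pfkfb1, Pfkfb2, Pfkfb3 and Pfkfb4, and Tigar. They were chosen by symbol for their function, and all 10 were found among the 27179 genes of the deposited tables. Their mRNA was measured by polyA mRNA-seq in mouse embryonic fibroblast (MEF) lines, with 6 libraries from 3 lines and 2 independent RNA preparations per line. All 3 lines carry the genotype Cry1-/-, Cry2-/-, Per1-/-, Per2-/-, Nr1d1-/- and Nr1d2-/-, which removes the CRY, PER and REV-ERB repressors of the circadian clock. The CPN-/- line has no further change. The CPN-/- CRY1 line (the CRY1 line below) expresses exogenous CRY1 and the CPN-/- CRY2 line (the CRY2 line) exogenous CRY2, each from a virus whose promoter is not under clock control. Each of these lines was grown from a single blasticidin-resistant colony, so that the exogenous protein and the clone cannot be told apart. The cells were grown in DMEM with 10% FBS and received no treatment. The p-values below measure only the spread between RNA preparations of 1 line.

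Glucose crosses the plasma membrane through carriers of the SLC2A family, also named GLUT proteins, and is then phosphorylated by hexokinase. Further down, phosphofructokinase-1 makes fructose 1,6-bisphosphate and is strongly activated by fructose 2,6-bisphosphate. The PFKFB enzymes carry a kinase that makes fructose 2,6-bisphosphate and a phosphatase that removes it, and the isozymes differ in the balance of these activities. Tigar encodes a phosphatase that is related to the PFKFB phosphatase domain and lowers fructose 2,6-bisphosphate. Proliferating fibroblasts take up glucose mainly through GLUT1, the product of Slc2a1. The clock transcription factors CLOCK and BMAL1, which CRY proteins repress, bind the E-box CACGTG, and hypoxia-inducible factors bind a core that ends in CGTG.

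The libraries held between 25957409 and 36106949 counts. Of the 10 genes, 8 had enough counts to test, with between 153 and 5245 counts per library, and Slc2a3 and Slc2a4 did not. The tests covered 14069 genes. Cry1 mRNA was 165 and 189.6 CPM (counts scaled to a common library size after TMM normalization) in the CRY1 line and 48.3 to 125 CPM in the other libraries, and Cry2 mRNA was 349 and 351 CPM in the CRY2 line and 50.7 to 136 CPM elsewhere. The exogenous gene had its top levels in the line made with it, although counts per gene do not separate exogenous from endogenous transcripts. Of 11 fibroblast markers, 8 had at least 10 counts in every library. The others were Lum with at most 1 count, Thy1 with 1 to 7 counts and Dcn with 1 to 61 counts. None of 5 epithelial and of 4 endothelial markers reached 10 counts in every library, and 1 of 5 leukocyte, 1 of 4 adipocyte, 1 of 5 skeletal muscle and 2 of 4 neural markers did. The 2 CPN-/- libraries differed more from each other than those of the other lines, with an SD over genes of the log2 difference of 0.44 against 0.23 and 0.24. In CPN-/- this difference followed exon length, with a Spearman correlation of 0.55 over 13243 genes, which are not independent replicates.

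The RefSeq promoter windows of GRCm38 (mm10), each with 250 bases before and 50 bases after a transcription start, were read for 8 of the 10 genes and not for Slc2a3 and Slc2a4. They were searched on both strands for the E-box CACGTG, for its inner part ACGTG, which every E-box therefore also holds, and for GCGTG. The E-box was found in the windows of 2 genes, Pfkfb2 and Pfkfb3, and in those of 8.09% of all genes. The 8 genes have 14 windows, and the E-box lies in 1 of the 3 windows of Pfkfb2 and in 1 of the 2 of Pfkfb3. Of all 32851 windows, from 27025 genes, 7.15% held it. ACGTG was found in 4 of the 8 genes (Slc2a1, Slc2a10, Pfkfb2 and Pfkfb3) and in 21.8% of all genes, and GCGTG in 6 of the 8 and in 35.2% of all genes. The stretches shown are those of the genes whose mRNA differed between the lines and whose window holds such letters before the start; capitals mark the E-box in Pfkfb2 and Pfkfb3 and ACGTG in Slc2a1, and each stretch is read 5′ to 3′ on the strand of its gene.
Pfkfb2 (chr1:130715826-130715855, reverse strand, E-box beginning 22 bases before a start): ggccaagcgcccCACGTGactcgccccaac
Pfkfb3 (chr2:11502126-11502155, reverse strand, E-box beginning 53 bases before a start): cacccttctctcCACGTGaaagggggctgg
Slc2a1 (chr4:119108697-119108726, forward strand, ACGTG beginning 36 bases before the start): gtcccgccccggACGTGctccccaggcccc
The Pfkfb2 and Pfkfb3 stretches hold no exon base of their genes in the GENCODE annotation and lie in introns of longer transcripts. Of the Slc2a1 stretch, 16 bases belong to a GENCODE exon of the gene, which begins before the RefSeq start. These matches describe letters only, and binding was not measured in these libraries.

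Compared with CPN-/-, 4 of the 8 tested genes were called in the CRY1 line, with 0.05 as the threshold on p after Benjamini-Hochberg adjustment of edgeR's quasi-likelihood test over all tested genes. Slc2a1 and Pfkfb3 were lower, and Slc2a10 and Pfkfb2 were higher. The same test called 24.3% of all tested genes, 13.1% as lower and 11.2% as higher. In the CRY2 line, 1 of the 8 genes was called, Slc2a1, which was lower, against 6.66% of all genes (4.08% lower and 2.58% higher). No gene of the 8 was called higher in the CRY2 line. At an unadjusted p under 0.05 edgeR had 1 such gene, Pfkfb2, and DESeq2 called 0 with 1 at an unadjusted p under 0.05. The direct comparison of the CRY1 line with the CRY2 line called Slc2a10 alone, as higher, against 16.3% of all genes (7.72% higher and 8.57% lower), and 0 of the 8 genes were lower in the CRY1 line at an unadjusted p under 0.05 by edgeR or DESeq2. The median log2 fold change of the 8 genes was 0.003 in the CRY1 line, −0.24 in the CRY2 line and 0.19 between these lines, and that of all tested genes −0.007, −0.008 and −0.005. Both comparisons with CPN-/- use the same 2 control libraries.

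**Figure D1:**
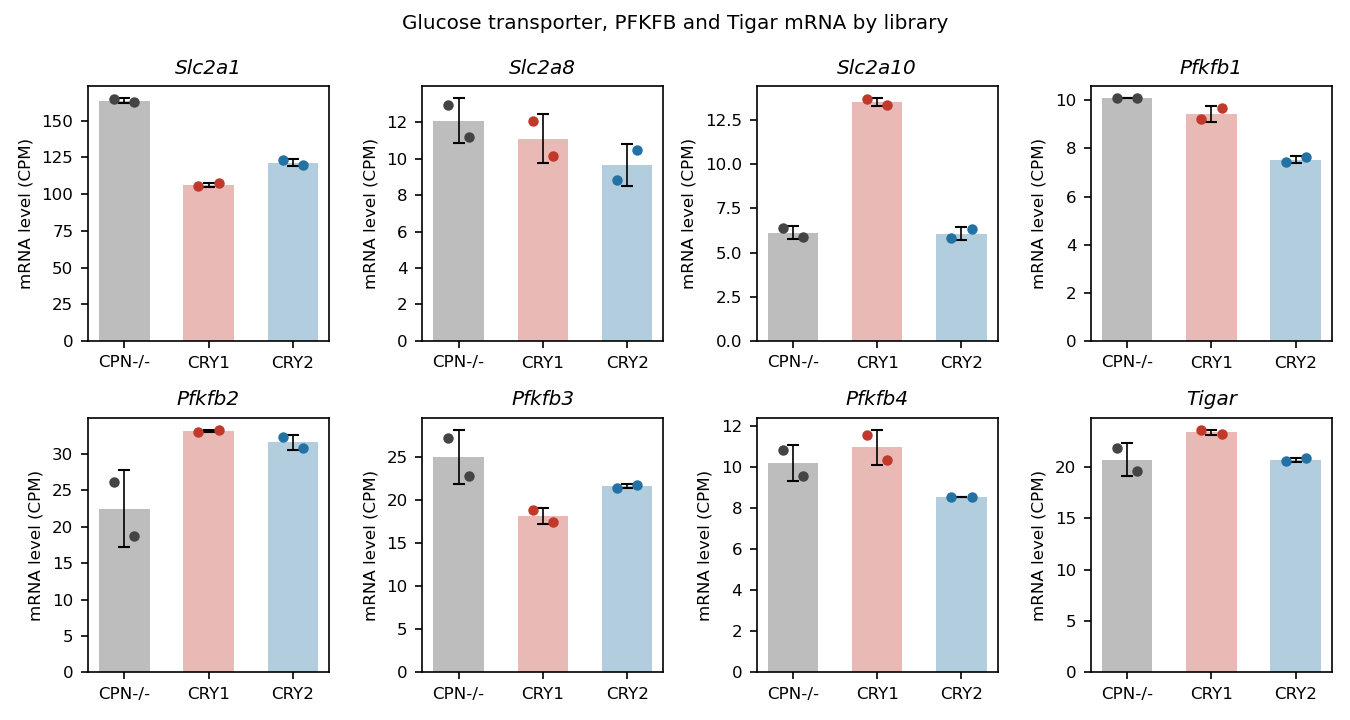
mRNA level in CPM (y axis, linear from 0) of the 8 tested genes in the CPN-/-, CPN-/- CRY1 (CRY1) and CPN-/- CRY2 (CRY2) lines. Points are libraries, bars are means and error bars are the SD of 2 libraries. Slc2a1 lies below both CPN-/- libraries in all 4 libraries of the other lines, and the 2 CPN-/- CRY1 libraries stand above the other 4 for Slc2a10.

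Slc2a1 encodes GLUT1, the carrier for basal glucose uptake. The gene (Entrez gene 20525) occupies bases 119108745 to 119137330 of mouse chromosome 4 (mm10, forward strand), with 10 exons in its longest coding transcript. Its mRNA level was 165 and 163 CPM in CPN-/-, 105 and 107 CPM in the CRY1 libraries and 123 and 119.6 CPM in the CRY2 libraries. The 3 lines did not overlap, with CPN-/- highest and the CRY1 line lowest, and the libraries of each line lay close together (SD of 1.67, 1.48 and 2.37 CPM, n = 2 each). The log2 fold change was −0.62 in the CRY1 line (standard error 0.09, edgeR adjusted p = 0.0045), a level 1.54-fold lower than in CPN-/-. In the CRY2 line it was −0.43 (standard error 0.09, adjusted p = 0.034), or 1.35-fold lower. Between the CRY1 and CRY2 lines the difference was −0.19, which was not called (95% confidence interval −0.40 to 0.02, adjusted p = 0.20). Over all 15 alternatives the fitted change ranged from −0.64 to −0.53 in the CRY1 line and from −0.45 to −0.33 in the CRY2 line, but the CRY1 call was lost without CRY1 replicate 1 (adjusted p = 0.078) or replicate 2 (0.074). The CRY2 call was lost without either CRY1 library (0.15 each), without CRY2 replicate 1 (0.31) or replicate 2 (0.34), and when only the 4 libraries of the comparison were fitted (0.14), a fit that called 3.43% of all genes.

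Slc2a10 encodes GLUT10, a carrier that resides largely in intracellular membranes. The gene (Entrez gene 170441) occupies bases 165503897 to 165519917 of chromosome 2 (forward strand). Its level was 6.38 and 5.87 CPM in CPN-/-, 13.7 and 13.4 CPM in the CRY1 line and 5.81 and 6.34 CPM in the CRY2 line. Both CRY1 libraries stood above the other 4 libraries, and those of CPN-/- and the CRY2 line overlapped. In the CRY1 line the log2 fold change was 1.14 against CPN-/- (standard error 0.12, adjusted p = 0.0017, edgeR), which is 2.20-fold higher. Against the CRY2 line it was 1.15 (standard error 0.13, adjusted p = 0.0018, edgeR), or 2.23-fold higher. In the CRY2 line the difference from CPN-/- was −0.01 (95% confidence interval −0.32 to 0.29, adjusted p = 0.95). The direct comparison is also the test of whether the 2 lines changed differently from CPN-/-. Both Slc2a10 calls held under all 15 alternatives, with log2 fold changes from 1.09 to 1.23 and from 1.09 to 1.22. Among the 20 tested genes nearest to Slc2a10 on the chromosome, the median log2 fold change in the CRY1 line against CPN-/- was 0.28. Of these 20 genes 5 were called, all as higher, where 24.3% of all tested genes were called, 11.2% as higher. The median of the 1055 tested genes of chromosome 2 was 0.03. Against the CRY2 line, the median of the 20 genes was 0.10, and 2 were called, both as higher. In that comparison 16.3% of all tested genes were called, 7.72% as higher. The part of this neighbourhood in the Slc2a10 difference was not tested.

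Slc2a8 encodes GLUT8, another carrier found mainly in intracellular compartments. Its gene occupies bases 32972981 to 32982083 of chromosome 2 (reverse strand). Its level was 12.95 and 11.2 CPM in CPN-/-, 12.04 and 10.2 CPM in the CRY1 line and 8.82 and 10.5 CPM in the CRY2 line. The lines lay close together, and both CRY2 libraries were below both CPN-/- libraries. The log2 fold changes were −0.12 in the CRY1 line (95% confidence interval −0.49 to 0.24) and −0.33 in the CRY2 line (−0.70 to 0.04), with adjusted p = 0.57 and 0.24. Without CPN-/- replicate 2 the latter was −0.42 and was called (adjusted p = 0.018), against 22.1% of all genes in that fit, whereas it was −0.22 without CPN-/- replicate 1 (adjusted p = 0.19) and −0.20 without CRY2 replicate 1 (adjusted p = 0.74).

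Slc2a3 encodes GLUT3, the high-affinity carrier typical of neurons, and Slc2a4 encodes GLUT4, the insulin-responsive carrier of muscle and adipose tissue. Slc2a3, at bases 122727809 to 122802363 of chromosome 6 (reverse strand), had 4 and 7 counts in CPN-/-, 7 and 6 in the CRY1 line and 5 and 3 in the CRY2 line. Slc2a4, at bases 69942286 to 69948216 of chromosome 11 (reverse strand), had 1 and 2, 5 and 5, and 3 and 4 counts. At this depth no difference between the lines was detectable for either gene. Stretches of the Slc2a3 transcripts are at least 95% identical to stretches of many other transcripts, so that the origin of its few reads is uncertain.

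**Figure D2:**
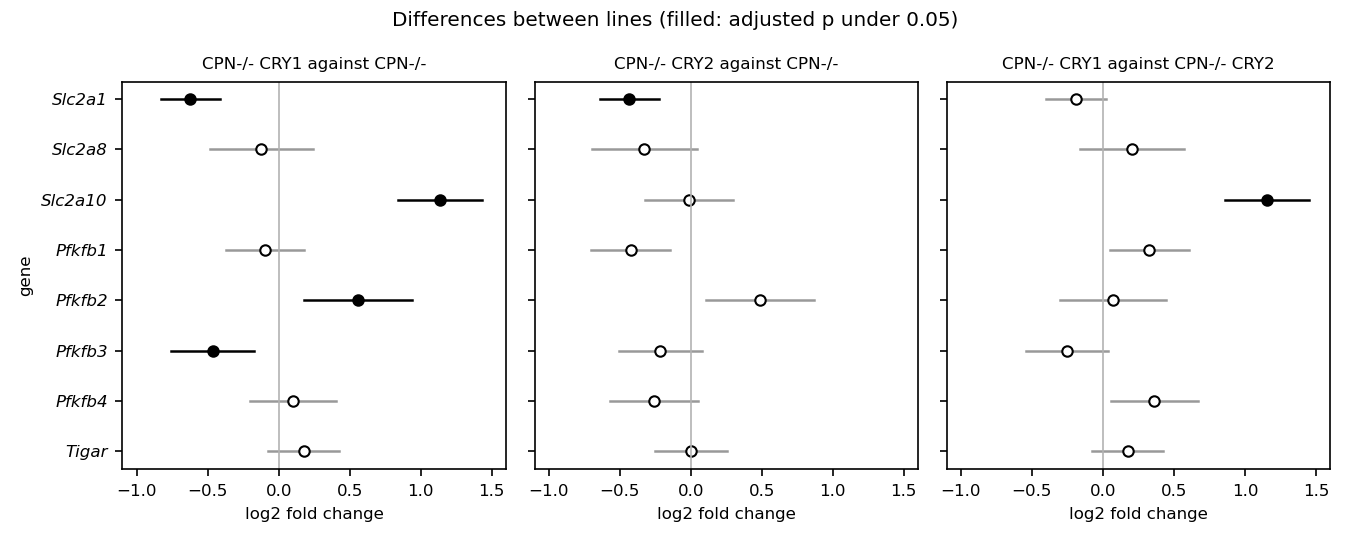
Log2 fold change (x axis) of each tested gene (y axis) in the 3 comparisons, with 95% confidence intervals from edgeR. Filled points are called at an adjusted p under 0.05, and the call at +1.15 in the right panel is Slc2a10.

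Pfkfb3 encodes the isozyme with by far the strongest excess of kinase over phosphatase activity, which raises fructose 2,6-bisphosphate in proliferating cells. The gene (Entrez gene 170768) occupies bases 11471430 to 11554071 of chromosome 2 (reverse strand), and 21 transcripts are annotated. Its level was 27.3 and 22.9 CPM in CPN-/-, 18.8 and 17.5 CPM in the CRY1 line and 21.5 and 21.8 CPM in the CRY2 line. The 3 lines did not overlap, in the same order as for Slc2a1, with CPN-/- highest and the CRY1 line lowest. The log2 fold change was −0.47 in the CRY1 line (standard error 0.12, adjusted p = 0.035, edgeR), or 1.38-fold lower. It was −0.21 in the CRY2 line (95% confidence interval −0.50 to 0.08, adjusted p = 0.32), and the direct difference of −0.25 did not pass the threshold (−0.54 to 0.04, adjusted p = 0.22). The call in the CRY1 line was lost without CRY1 replicate 1 or 2 (adjusted p = 0.16 and 0.25), without CRY2 replicate 1 or 2 (0.095 each), and in the fit of the 4 libraries of the comparison (0.092), which called 12.9% of all genes. The value in the CRY2 line depended on the CPN-/- library used: it was −0.33 without CPN-/- replicate 2 and −0.08 without replicate 1.

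Pfkfb2 encodes the isozyme of heart, whose kinase activity is raised by phosphorylation through insulin and AMPK signalling. The gene (Entrez gene 18640) occupies bases 130689043 to 130729253 of chromosome 1 (reverse strand). Its level was 26.2 and 18.8 CPM in CPN-/-, 33.1 and 33.3 CPM in the CRY1 line and 32.3 and 30.8 CPM in the CRY2 line. All 4 libraries of the CRY1 and CRY2 lines were above both CPN-/- libraries, and the CPN-/- libraries were the ones that lay far apart (SD of 5.25 CPM, against 0.152 and 1.06). The log2 fold change was 0.56 in the CRY1 line (standard error 0.16, adjusted p = 0.045, edgeR), or 1.47-fold higher. It was 0.49 in the CRY2 line (95% confidence interval 0.11 to 0.87, adjusted p = 0.13). The lines that express CRY differed by 0.07 (−0.30 to 0.44). The value depended on the CPN-/- library used: in the CRY1 line it was 0.82 without CPN-/- replicate 1 and 0.35 without replicate 2. In the CRY2 line it was 0.75 and 0.28. The call in the CRY1 line was lost without CRY1 replicate 1 or 2 (adjusted p = 0.19 and 0.21), without CRY2 replicate 1 or 2 (0.096 and 0.095) and with the 4 libraries of the comparison (0.099). Pfkfb2 shares 1262 exon bases with the gene Gm29427 on the same strand and 154 bases with Yod1 on the other. Its counts are uncertain to that extent because the annotation and the strand setting of the counting are not given. Slc2a1, Pfkfb1 and Tigar share 105, 123 and 122 exon bases with a gene on the other strand.

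Pfkfb1 encodes the liver and muscle isozyme, and Pfkfb4 an isozyme first known from testis that is also present in dividing cells. Pfkfb1, at bases 150587445 to 150643878 of chromosome X (forward strand), was at 10.1 and 10.1 CPM in CPN-/-, 9.21 and 9.67 CPM in the CRY1 line and 7.42 and 7.63 CPM in the CRY2 line. The lowest libraries were both those of the CRY2 line, and no 2 lines overlapped. The log2 fold change of Pfkfb1 in the CRY2 line was −0.42 with a 95% confidence interval of −0.70 to −0.14, which did not pass after adjustment over all genes (adjusted p = 0.092), and in the CRY1 line it was −0.10 (adjusted p = 0.55). The Pfkfb1 value in the CRY2 line was −0.42 without CPN-/- replicate 1 and −0.41 without replicate 2. Pfkfb4, at bases 108988272 to 109032236 of chromosome 9 (forward strand), was at 10.8 and 9.59 CPM, 11.6 and 10.4 CPM, and 8.56 and 8.56 CPM in the same order of lines. The CRY2 line was again lowest, while CPN-/- and the CRY1 line overlapped. The log2 fold changes of Pfkfb4 were 0.10 in the CRY1 line (adjusted p = 0.57) and −0.26 in the CRY2 line (adjusted p = 0.27). Between the CRY1 and CRY2 lines the differences were 0.33 for Pfkfb1 (95% confidence interval 0.05 to 0.60) and 0.36 for Pfkfb4 (0.05 to 0.67), both with an adjusted p of 0.11. When only the 4 libraries of these lines were fitted, 5 of the 8 genes were called between them: Pfkfb1, Pfkfb4 and Slc2a10 higher and Slc2a1 and Pfkfb3 lower in the CRY1 line, against 49.7% of all genes. Without CPN-/- replicate 1 or without replicate 2, 5 genes were called as well, against 48.4% and 47.7% of all genes.

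Tigar, whose product opposes the PFKFB kinases, occupies bases 127085116 to 127109552 of chromosome 6 (reverse strand). Its level was 21.8 and 19.6 CPM in CPN-/-, 23.6 and 23.2 CPM in the CRY1 line and 20.6 and 20.9 CPM in the CRY2 line. The CRY1 libraries were the highest, by a small margin, and those of the CRY2 line lay between the CPN-/- libraries. The log2 fold changes were 0.18 in the CRY1 line (95% confidence interval −0.07 to 0.43, adjusted p = 0.25) and −0.0003 in the CRY2 line (−0.25 to 0.25, adjusted p = 1.00). Without CPN-/- replicate 1 the value in the CRY1 line was 0.26 and was called (adjusted p = 0.020), against 63.0% of all genes in that fit, and without replicate 2 it was 0.11 (adjusted p = 0.37).

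The libraries of 2 lines did not overlap for 6 of the 8 genes in the CRY1 line, 6 in the CRY2 line and 7 between the CRY1 and CRY2 lines. Over all tested genes the shares without overlap were 66.9%, 55.1% and 73.3%. None of the 10 genes lies on chromosomes 3, 15, 16 or 19, whose tested genes had median log2 fold changes of −0.28, −0.36, 0.27 and 0.31 in the CRY1 line. The median of the chromosomes that hold the 10 genes was between −0.13 and 0.11 in this comparison.

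The makeup of each family was compared as level per length, which is CPM per kilobase of annotated exon. Among 12 SLC2A genes, Slc2a1 had 83.1% ± 0.537 (SD, n = 2) of the summed level in CPN-/-, 74.2% ± 1.61 in the CRY1 line and 82.7% ± 1.00 in the CRY2 line. The share of Slc2a10 was 3.05% ± 0.129, 9.26% ± 0.0760 and 4.06% ± 0.282, and that of Slc2a8 was 6.69% ± 0.573, 8.45% ± 0.950 and 7.18% ± 0.912. Slc2a1 was thus the main transporter mRNA in every library, with a level per length between 30.045 and 47.0 CPM per kilobase. The ratio of Slc2a1 to Slc2a10 was 26.3 and 28.2 in CPN-/-, 7.85 and 8.19 in the CRY1 line and 21.6 and 19.2 in the CRY2 line.

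In CPN-/- the share of Pfkfb3 was 30.1% ± 0.168 (SD, n = 2), that of Pfkfb2 27.9% ± 3.22, that of Pfkfb1 22.9% ± 2.75 and that of Pfkfb4 19.1% ± 0.635, so that Pfkfb3 and Pfkfb2 did not differ beyond their spread. In the CRY1 line Pfkfb2 had 39.5% ± 0.862, Pfkfb3 20.8% ± 0.714, Pfkfb1 20.3% ± 1.04 and Pfkfb4 19.4% ± 1.18, and the last 3 did not differ beyond their spread. In the CRY2 line Pfkfb2 had 40.1% ± 1.06, Pfkfb3 26.4% ± 0.477, Pfkfb1 17.3% ± 0.468 and Pfkfb4 16.2% ± 0.116. The ratio of Pfkfb3 to Pfkfb2 per length was 1.00 and 1.17 in CPN-/-, 0.547 and 0.505 in the CRY1 line and 0.638 and 0.679 in the CRY2 line. It was thus lower in all 4 libraries of the CRY1 and CRY2 lines than in both CPN-/- libraries. The summed PFKFB level per length was 11.96 and 10.1 CPM per kilobase in CPN-/-, 11.7 and 11.4 in the CRY1 line and 10.9 and 10.8 in the CRY2 line. The CPN-/- values spanned those of the other lines, and both values of the CRY1 line lay above both of the CRY2 line. Tigar, at 5.35 to 6.44 CPM per kilobase of all exons, was above every single PFKFB gene in each library by this measure. With the longest transcript in place of all exons, the PFKFB shares kept Pfkfb2 first in the CRY1 and CRY2 lines, at 41.3% and 41.8%. Pfkfb2 then had 7.34 and 7.39 CPM per kilobase in the CRY1 line and 7.18 and 6.84 in the CRY2 line. The Tigar length is nearly the same by both measures (3658 and 3651 bases), so its place above Pfkfb2 in these lines depended on the length used. In bulk cultures, fewer cells that express a gene and less mRNA per cell cannot be told apart.

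**Figure D3:**
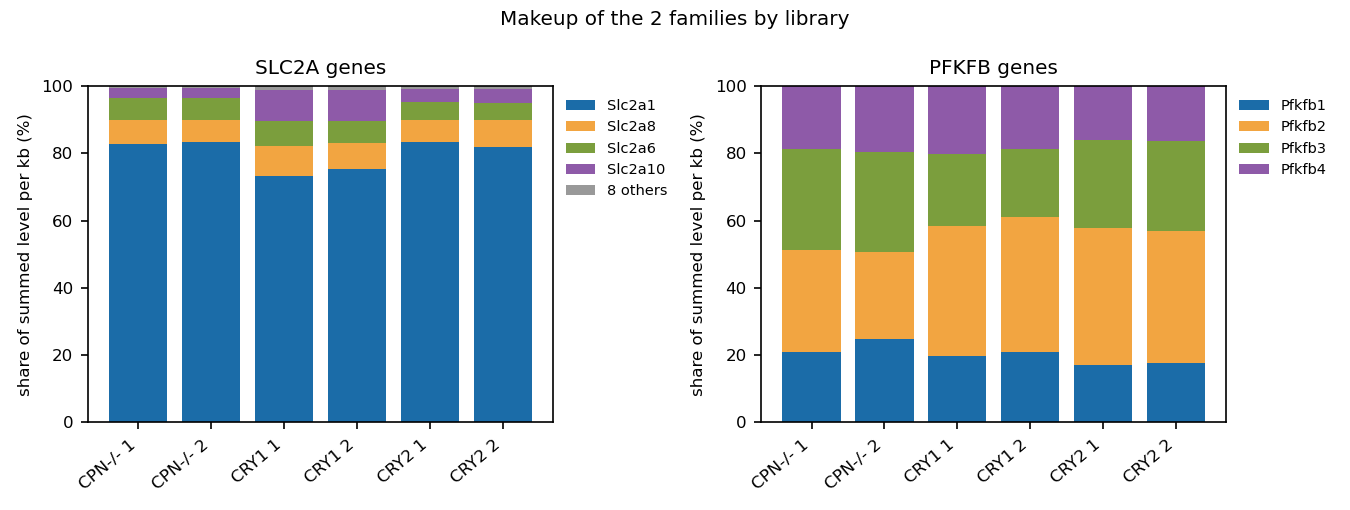
Share (%, y axis) of each gene in the summed level per kilobase of the 12 SLC2A genes (left) and of the 4 PFKFB genes (right) in each of the 6 libraries (x axis). Slc2a1 takes 73.1% to 83.5% in every library, and the Pfkfb2 part is larger in the 4 libraries of the CRY1 and CRY2 lines than in both CPN-/- libraries.

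The other steps from glucose entry to fructose 1,6-bisphosphate were read from lists of the same pathway. For comparison with the counts below, 13.1% of all tested genes were called lower and 11.2% higher in the CRY1 line. These shares were 4.08% and 2.58% in the CRY2 line, and 8.57% and 7.72% between the CRY1 and CRY2 lines. Of 9 other hexose carriers of the SLC2A family and related families, 3 were tested, and 1 was called, as lower in the CRY2 line. This was Slc2a6, named here after its values were seen, at 11.9 and 11.9 CPM in CPN-/-, 9.77 and 8.53 CPM in the CRY1 line and 7.35 and 6.93 CPM in the CRY2 line. Its log2 fold change was −0.74 in the CRY2 line (standard error 0.13, adjusted p = 0.019, edgeR) and −0.38 in the CRY1 line (adjusted p = 0.067), and the difference between these lines, 0.36, did not pass (adjusted p = 0.11).

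Of 7 hexose phosphorylation genes, 3 were tested, and 2 were lower in the CRY1 line and 1 in the CRY2 line. The shares of all tested genes called lower were 13.1% and 4.08%. Hk2, the inducible hexokinase, was at 48.6 and 39.7 CPM in CPN-/-, 26.8 and 28.4 CPM in the CRY1 line and 29.3 and 26.9 CPM in the CRY2 line. Its libraries of both the CRY1 and the CRY2 line lay below both CPN-/- libraries, at −0.68 on the log2 scale (standard error 0.13, edgeR adjusted p = 0.012) and −0.65 (standard error 0.13, adjusted p = 0.030). Hk1, the constitutive hexokinase, had −0.06 and −0.04 and was not called. The second lower gene in the CRY1 line was Adpgk, an ADP-dependent glucokinase, with −0.33 (adjusted p = 0.047), named after its values were seen.

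Of 9 genes that act on fructose 6-phosphate and fructose 1,6-bisphosphate, 6 were tested, and 4 were lower in the CRY1 line and 3 in the CRY2 line. The shares of all tested genes called lower were 13.1% and 4.08%. The median log2 fold change of the 6 genes was −0.78 and −0.68, and that of all tested genes −0.007 and −0.008. Gpi1, Pfkl and Aldoa were lower in both lines, with log2 fold changes of −0.84 to −1.78 in the CRY1 line and −0.95 to −1.31 in the CRY2 line. The 3 subunits of phosphofructokinase-1, the enzyme that fructose 2,6-bisphosphate activates, did not move alike. Pfkm, the muscle-type subunit, was at 117 and 121 CPM in CPN-/-, 92.5 and 85.0 CPM in the CRY1 line and 120.4 and 128 CPM in the CRY2 line, and Pfkp, the platelet-type subunit, at 116 and 116 CPM, 149 and 139 CPM, and 96.5 and 101 CPM. Between the CRY1 and CRY2 lines, the CRY1 line was lower for Pfkl (−0.46, adjusted p = 0.025, edgeR) and Pfkm (−0.49, adjusted p = 0.018) and higher for Pfkp (0.54, adjusted p = 0.011). Pfkm lies on chromosome 15, whose median was −0.43 in that comparison.

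**Figure D4:**
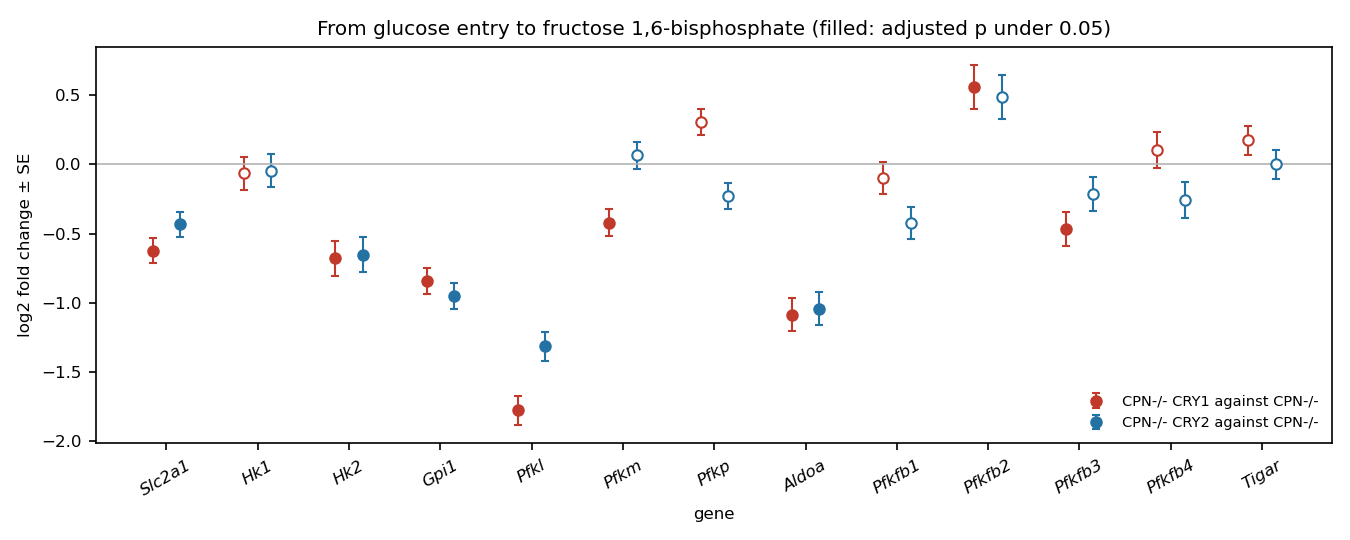
Log2 fold change ± standard error (y axis) in the CRY1 line (red) and the CRY2 line (blue) against CPN-/- for 13 genes (x axis) from glucose entry to fructose 1,6-bisphosphate. Filled points are called at an adjusted p under 0.05, and Slc2a1, Hk2, Gpi1, Pfkl and Aldoa are filled below 0 in both lines while Pfkfb2 lies above 0.

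Of 10 genes that control glucose carriers at the cell surface, 9 were tested. In the CRY1 line 3 of them were higher, namely Txnip, Rab10 and Vps35, where 11.2% of all tested genes were called higher. None was called in the CRY2 line by edgeR (lowest adjusted p = 0.15, with 1 of 9 at an unadjusted p under 0.05) or by DESeq2. Txnip encodes an arrestin-like protein that promotes the internalization of GLUT1 and is itself induced by glucose. Its level was 18.1 and 23.3 CPM in CPN-/-, 40.5 and 32.9 CPM in the CRY1 line and 11.5 and 17.9 CPM in the CRY2 line, and the 3 lines did not overlap. The log2 fold change was 0.83 in the CRY1 line (standard error 0.23, adjusted p = 0.041, edgeR), −0.49 in the CRY2 line (adjusted p = 0.25) and 1.32 between the CRY1 and CRY2 lines (standard error 0.23, adjusted p = 0.012). Txnip lies on chromosome 3, whose median log2 fold change in the CRY1 line was −0.28. Rab10, a GTPase of carrier exocytosis, and Vps35, a retromer subunit, had log2 fold changes of 0.45 and 0.43 in the CRY1 line (adjusted p = 0.049 and 0.020) and were named after their values were seen. Sort1, a sorting receptor, had 61 to 118 counts and was lower in the CRY1 line than in the CRY2 line, with −0.80 (adjusted p = 0.049), and lies on chromosome 3 too, whose median in this comparison was −0.40.

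Of 13 genes for kinases and ubiquitin ligase factors that act on PFKFB enzymes or on glucose uptake, all were tested. Among them 1 was called higher and 1 lower in the CRY1 line, where 11.2% and 13.1% of all tested genes were. In the CRY1 line, Prkag2, an AMPK subunit, was higher with a log2 fold change of 0.56 (adjusted p = 0.0080) and Rps6ka1, a kinase reported to phosphorylate PFKFB enzymes, was lower with −0.46 (adjusted p = 0.046), both named after their values were seen. In the CRY2 line none of the 13 was called by edgeR (lowest adjusted p = 0.14, with 3 of 13 at an unadjusted p under 0.05) or by DESeq2. Between the CRY1 and CRY2 lines Prkaa1, the catalytic alpha 1 subunit of AMPK, was lower (−0.50, adjusted p = 0.035) and Btrc, a substrate receptor of the ubiquitin ligase that marks PFKFB3 for degradation, was higher (0.50, adjusted p = 0.032) in the CRY1 line. Prkaa1 lies on chromosome 15 and Btrc on chromosome 19, whose medians in this comparison were −0.43 and 0.46.

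Of the 23 calls in these lists, 4 held without each of the 6 libraries in turn and under the other alternatives, namely those of Pfkl in both comparisons with CPN-/- and of Gpi1 and Aldoa in the CRY1 line. The Hk2 call in the CRY1 line was lost without either CRY1 library, and that in the CRY2 line without any 1 of the CRY1 or CRY2 libraries. The Txnip call in the CRY1 line was lost without either library of CPN-/- or of the CRY1 line, and that between the CRY1 and CRY2 lines was lost without any library other than CRY2 replicate 2. The calls of Slc2a6, Adpgk, Rab10, Vps35, Rps6ka1, Pfkm, Pfkp, Sort1, Prkaa1 and Btrc and that of Pfkl between the CRY1 and CRY2 lines were each lost without any 1 of the CRY1 or CRY2 libraries. Those of Adpgk and Sort1 were also lost with DESeq2, and the Adpgk call was lost under 10 of the 15 alternatives in all. Prkag2 was lost without either CRY1 library, Aldoa in the CRY2 line without either CRY2 library and Gpi1 in the CRY2 line without CRY2 replicate 1.

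Markers of other cell types and of fibroblasts differed between the lines as well. Fabp4, the 1 adipocyte marker with at least 10 counts in every library, was lower in the CRY1 line (log2 fold change −3.93, adjusted p = 3.5e-04, edgeR) and in the CRY2 line (−2.30, adjusted p = 0.0026), while Adipoq, Plin1 and Lep had at most 3 counts in every library. The summed level of the 4 adipocyte markers was 8.74 to 12.1 CPM in CPN-/-, 0.747 to 0.778 CPM in the CRY1 line and 1.85 to 2.39 CPM in the CRY2 line. That of the 11 fibroblast markers was 11164 to 14112 CPM, 13587 to 13884 CPM and 17402 to 17841 CPM. Of the 9 fibroblast markers tested, 2 were lower in the CRY1 line (Pdgfra, −1.31, adjusted p = 0.0015, edgeR, and Dcn, −2.92, adjusted p = 0.0090). Pdgfrb was higher there (0.88, adjusted p = 0.010, edgeR). The shares of all tested genes called lower and higher were 13.1% and 11.2%. Dcn had only 6 and 1 counts in the CRY1 line, against 23 and 24 in CPN-/-. In the CRY2 line Dcn alone was called, as higher (1.44, adjusted p = 0.039), where 2.58% of all tested genes were higher. The neural marker Map2 was higher in the CRY1 line (0.52, adjusted p = 0.043, edgeR) and in the CRY2 line (1.04, adjusted p = 0.0092), and the muscle marker Des, with 26 to 52 counts, was lower in the CRY1 line (−1.13, adjusted p = 0.027). The part of these markers in the differences of the transporter and PFKFB genes was not tested.

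The genes whose levels over the 6 libraries were most like those of Slc2a1 and of Pfkfb3 were taken by the smallest root mean square difference of centred log2 CPM among 14069 genes. For Slc2a1 they were Entpd6 (0.0214), Ssx2ip (0.0326) and Otub2 (0.0397), and for Pfkfb3 they were Ppp1r3b (0.0322), Spring1 (0.0337) and Scara3 (0.0385).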

How the data were processed

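The authors extracted RNA with Trizol and a column kit, made stranded polyA libraries and sequenced them as paired-end reads. RNA STAR aligned the reads to mm10, and featureCounts gave a count for each gene. The deposited values are these raw counts by NCBI Gene identifier, 1 table per library. The annotation, the strand setting and the handling of reads with several matches are not given in the sources used here.

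Counts were tested with edgeR 4.0.16 in R 4.3.3 (TMM, filterByExpr at its defaults, which are 10 counts in a median-sized library and 15 over all libraries, robust quasi-likelihood dispersions, two-sided test), with the line as the only term over all 6 libraries and Benjamini-Hochberg adjustment over 14069 genes. The standard error was derived from the F statistic as |log2 fold change|/√F, and intervals are at 95%. With 2 libraries per line, the precision rests on the spread shared across genes. The fit also takes 1 spread per gene for all lines, although the 2 CPN-/- libraries differed more from each other than those of the CRY1 and CRY2 lines. Alternatives were DESeq2 1.42.0 (which gave the alternative size factors too), library size alone, other filters, a replicate term, a fit of each comparison's own 4 libraries, the stricter threshold of 0.01, each library left out and removal of each library's trend with exon length by loess (span 0.5). The steps were tested on simulated data. Exon lengths came from GENCODE for GRCm38 and positions from RefSeq. Similar sequence was searched at 95% identity over at least 150 bases.

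Named from the pathway lists are genes called in both comparisons with CPN-/-, called between the CRY1 and CRY2 lines, or called and changed by 1 or more on the log2 scale. Genes of like pattern are the 3 nearest. The 10 genes, the lists and the tests were chosen with earlier results of these data known.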

Additional observations from a re-analysis of the deposited data

Results flagged for a closer look

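The direct comparison of CPN-/- CRY1 with CPN-/- CRY2, in the fit over all genes, called Slc2a10 and 7 genes of the pathway lists. It tests whether the change from CPN-/- differed between the CRY1 and CRY2 lines. Slc2a10 was higher in the CRY1 line with a log2 fold change of 1.15, in both of its libraries. Txnip was higher by 1.32 on the log2 scale, Pfkp by 0.54 and Btrc by 0.50. Sort1 was lower with a log2 fold change of −0.80, Prkaa1 with −0.50, Pfkm with −0.49 and Pfkl with −0.46. This comparison called 16.3% of all tested genes. Of the calls named here, only that of Slc2a10 held without each library in turn. Txnip and Sort1 lie on chromosome 3, Prkaa1 and Pfkm on chromosome 15 and Btrc on chromosome 19. The medians of these chromosomes in this comparison were −0.40, −0.43 and 0.46. Groups of 2 libraries cannot be searched for an outlying library.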

How the results depend on the processing

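Of 360 log2 fold changes of the 8 tested genes under alternatives, 307 kept their direction and their side of the threshold, 23 lost a call, 20 gained one and 10 changed sign, none of them called. Slc2a10 in the CRY2 line changed sign with the length trend removed (0.0776) and, over the libraries left out in turn, ranged from −0.0697 to 0.0525. Tigar in the CRY2 line changed sign with DESeq2 (0.000998), with the replicate block (0.00141) and with the length trend removed (0.0874), and ranged from −0.0686 to 0.0823 over the libraries left out. For the CRY1 line, the CRY2 line and the direct comparison in turn, the fit of the 4 libraries called 1798, 473 and 6838 genes, with 2, 0 and 5 of the 8 genes among them, where the full fit called 3423, 937 and 2292 with 4, 1 and 1. An adjusted p under 0.01 gave 1184, 363 and 854 genes, with 2 of the 8 in the CRY1 line and 0 in the CRY2 line, where 3 had an unadjusted p under 0.05 by edgeR. With at least 10 counts in every library 583 genes were called in the CRY2 line. With the length trend removed, 1748 and 3622 genes were called in the CRY2 line and in the direct comparison, and 2 of the 8 in the CRY2 line, Pfkfb2 (0.42, adjusted p = 0.035) being added. The Pfkfb2 call in the CRY1 line was also lost with library size alone (adjusted p = 0.052) and with at least 10 counts in every library (0.051). Leaving out each library in turn gave 663 to 8980, 199 to 8046 and 475 to 6897 genes, and 1 to 5, 0 to 5 and 1 to 5 of the 8 genes. The causes were not tested. Among the fits without a library, which have fewer samples, the most genes were called without CPN-/- replicate 1 in every comparison. The fewest were called without a CRY1 or CRY2 library. When a library was left out, its line's lone library was assumed to vary like the other lines. Depth limited Slc2a3 and Slc2a4, which had at most 7 counts.

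The replicate numbers were taken as names and not as pairs, since the deviations of same-numbered libraries correlated at −0.08, 0.14 and −0.03 between lines. With the replicate block 3458, 977 and 2188 genes were called, and Slc2a1 in the CRY2 line was not (adjusted p = 0.058), which left 0 of the 8 genes there, 3 with an unadjusted p under 0.05 by edgeR. The block changed no other call of the 8 genes. In the pathway lists it ended the calls of Adpgk and Rps6ka1 in the CRY1 line.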
